A study of Mus musculus with 4 samples.

Results

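SOX5, SOX6 and SOX9 are transcription factors of the SRY-related HMG box family that act together in cartilage, and their genes Sox5, Sox6 and Sox9 were followed through all 4 libraries of the series. They are 3 of the 55036 genes counted in either joint, chosen by name and matched by Ensembl identifier. Poly-A RNA labelled as articular cartilage was sequenced from hip and knee, with 1 library per condition, and every mouse carried the floxed Cbfβf/f alleles. The hip control came from 6-week-old male Cbfβf/f mice, whose labels name no Cre and give the treatment as none, whereas the general methods describe tamoxifen or corn oil injection for mice of this genotype too. Its partner came from tamoxifen-injected male Cbfβf/f;Col2α1-CreERT mice, also 6 weeks old, in which injections began at 2 weeks. Both knee libraries came from 12-week-old male Cbfβf/f;Aggrecan-CreERT mice, injected with oil (the control) or tamoxifen, and sources differ on when these injections began. The Col2a1 and aggrecan drivers direct the inducible Cre to chondrocytes. By its labels the hip control differs from its partner in Cre and tamoxifen as well as in the deletion, and these cannot be told apart in the hip pair. Ages follow the legends, and the running text gives an older age for the hip mice. The methods state a group size for the study in general, but how many animals went into a library is not given in the sources used here.

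SOX9, a SOXE protein, is the factor that chondrocytes need to form and to keep making matrix, and it binds enhancers of the type II collagen and aggrecan genes. SOX5 and SOX6 are closely related SOXD proteins that lack a transactivation domain of their own and bind beside SOX9, raising its activity at the same cartilage genes. SOX6 is also known outside cartilage, in skeletal muscle, where it represses slow fibre genes, and in red cell precursors, where it represses embryonic globin genes. Cbfβ, the deleted protein, is the partner of the RUNX transcription factors. The paper ascribes to these pairs roles in chondrocytes from commitment to differentiation, and in osteoblasts.

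Because Cbfβ works through RUNX proteins, promoters of the trio were searched for the RUNX core motif TGTGGT on both strands, in the RefSeq promoter windows of build GRCm38.p6 (250 bases before to 50 bases after a start, 300 in all). Of the 3 genes, 2 matched an entry, Sox5 with 1 promoter and Sox6 with 6. The motif was present in 2 of the 6 Sox6 promoters, and 16.8% of all 32851 promoter windows held it. The Sox5 window and the Sox6 windows with a match are shown 5′ to 3′ on the gene's strand, with the RUNX motif in capitals. The 5′ end of Sox5 is at 144727703 (GRCm39, numbered differently from the windows), so its window lies inside the gene, at an internal start. Sox6 promoters A and B also lie inside their gene. The 5′-most Sox6 window (chr7:116038695-116038994) held no RUNX match.
Sox5 promoter, chr6:143947057-143947356, minus strand: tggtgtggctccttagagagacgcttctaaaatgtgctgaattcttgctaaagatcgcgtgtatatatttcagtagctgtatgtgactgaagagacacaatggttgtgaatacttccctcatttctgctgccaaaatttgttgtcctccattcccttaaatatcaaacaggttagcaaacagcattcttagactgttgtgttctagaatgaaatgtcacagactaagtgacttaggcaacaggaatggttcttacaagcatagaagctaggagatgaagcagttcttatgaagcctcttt
Sox6 promoter A, chr7:115846091-115846390, minus strand: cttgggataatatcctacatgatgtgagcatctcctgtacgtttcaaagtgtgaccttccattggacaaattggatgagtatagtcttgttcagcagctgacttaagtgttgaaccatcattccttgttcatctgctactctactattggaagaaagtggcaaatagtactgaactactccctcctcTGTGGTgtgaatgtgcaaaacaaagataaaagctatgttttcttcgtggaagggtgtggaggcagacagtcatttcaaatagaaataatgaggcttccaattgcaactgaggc
Sox6 promoter B, chr7:115824661-115824960, minus strand: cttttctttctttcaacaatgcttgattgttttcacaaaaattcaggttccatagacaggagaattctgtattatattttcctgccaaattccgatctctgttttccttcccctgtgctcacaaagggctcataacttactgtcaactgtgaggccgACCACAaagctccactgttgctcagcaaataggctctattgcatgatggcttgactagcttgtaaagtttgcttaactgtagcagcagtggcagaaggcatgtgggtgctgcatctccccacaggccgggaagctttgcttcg
In Sox6 promoter B the match is on the opposite strand and overlaps a copy of the SOX motif ACAAAG. That SOX motif, searched on both strands, stood in 5 of the 6 Sox6 windows, in 0 of 1 for Sox5, and in 18.7% of all windows. A match is a description of the letters, and the counts sum all start sites of a gene.

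The libraries held between 34264456 and 38473120 counts on genes, so that a count of 3 equalled 0.0780 to 0.0876 counts per 1000000 (CPM). Cbfb itself (ENSMUSG00000031885) stood at 2548 (control) and 2946 counts for the hip and at 3796 (control) and 4572 for the knee, with log2 ratios of 0.37 (hip, turning to -0.28 after removal of a trend with transcript length and GC content, "trend removal" in what follows) and -0.08 (knee, turning to 0.11 under library size scaling). Whole-gene counts cannot reveal the loss of 1 exon, so a library is called "labelled Cbfb-deficient" here. At the protein level the paper reported less Cbfβ after tamoxifen in hip cartilage of both lines (western blot). It reported the same by staining in knee cartilage of the aggrecan line. The 7 chondrocyte markers (among them Col2a1, Acan and Comp) were all detected, but took 0.0155% of the hip control, 0.00592% of the hip library labelled Cbfb-deficient, 0.396% of the knee control and 0.191% of the knee library labelled Cbfb-deficient. Comp alone, which tendon also expresses, made up 0.0123% and 0.00372% of the hip libraries, so most of the hip share and of its difference was that of 1 gene. For 16 skeletal muscle genes the share was 17.96% (control) and 18.5% in the hip, as against 1.30% (control) and 2.74% in the knee. The hip libraries thus held little chondrocyte RNA beside muscle RNA. In such tissue RNA, fewer cells of a type and less RNA per cell cannot be told apart.

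Sox9 (ENSMUSG00000000567, GRCm39 chr11:112673009-112678586, plus strand) was the member with opposite directions in the joints, above its control in the hip and below it in the knee, under all 10 settings computed. After trend removal Sox5 (-1.07 and 0.52) and Sox6 (0.21 and -0.13) also had opposite directions in hip and knee beyond counting error, so the trait is not particular to Sox9 under that setting. It had 249 counts in the hip control and 372 in the hip library labelled Cbfb-deficient, or 6.47 CPM (exact Poisson 95% interval 5.69 to 7.33) and 10.8 CPM (9.69 to 11.9). In the knee it had 1554 counts in the control and 947 in the library labelled Cbfb-deficient, or 45.4 CPM (43.1 to 47.7) and 24.8 CPM (23.2 to 26.4). Both knee levels lay above both hip levels, and each step in the order hip control, hip labelled Cbfb-deficient, knee labelled Cbfb-deficient and knee control was larger than counting error. These intervals, and those of the log2 ratios, cover counting error only, because 1 library per condition gives no spread between animals and allows no test. The joints also differ in Cre line, age, control treatment and counting program, and these cannot be told apart in a step from hip to knee.

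A log2 ratio here compares each library labelled Cbfb-deficient with its control after TMM scaling within the pair and addition of 0.5 to both counts. For Sox9 it was 0.74 in the hip (95% counting interval 0.51 to 0.98) and -1.06 in the knee (-1.18 to -0.94). The hip value was 0.48 under upper quartile scaling, and the knee value was -0.87 when scaled by library size alone, which takes it below the size of 1 used for a call. A gene was called when its log2 ratio was at least 1 in size and its counting interval excluded 0, which 36.5% of 19856 genes did in the hip and 15.9% of 21131 in the knee. Sox9 was thus not called in the hip and was called in the knee, where 6.92% of genes were called lower. The knee ratio minus the hip ratio was -1.80 (95% counting interval -2.06 to -1.54). Of 17594 genes measured in both joints, 9.98% were, like Sox9, higher in the hip and lower in the knee beyond counting error. This pattern was known when Sox9 was chosen, and it is given as a description.

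Sox6 (ENSMUSG00000051910, GRCm39 chr7:115070106-115638860, minus strand), whose product assists SOX9, was higher in the hip library labelled Cbfb-deficient than in its control. Its hip counts were 2149 in the control and 4012 in the library labelled Cbfb-deficient, or 55.9 CPM (53.5 to 58.3) and 116 CPM (112 to 120). The knee control had 2141 counts and its partner 2881, or 62.5 CPM (59.9 to 65.2) and 75.4 CPM (72.6 to 78.2). The controls of the joints were thus close in Sox6, unlike in Sox9, and the hip library labelled Cbfb-deficient stood above the other 3. The hip log2 ratio was 1.06 (0.99 to 1.14) and was called, at a background of 19.6% of genes called higher. It fell short of a call under upper quartile scaling (0.80) and when each library had to reach 10 counts (0.98), and stood at 0.21 after trend removal. In the knee it was 0.08 (0.003 to 0.17). That knee value lay at the edge of counting error, and its interval included 0 under DESeq2 size factors (0.07) and upper quartile scaling (0.01). The value was 0.27 (0.19 to 0.35) by library size and -0.13 after trend removal.

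Sox5 (ENSMUSG00000041540, GRCm39 chr6:143774151-144727703, minus strand), the SOXD partner gene of Sox6, was scarce in the hip and higher than its control in the knee. It had 56 and 44 counts in the hip control and its partner, or 1.46 CPM (1.10 to 1.89) and 1.27 CPM (0.92 to 1.71), which did not differ beyond counting error. The knee control had 224 counts and the knee library labelled Cbfb-deficient 480, or 6.54 CPM (5.71 to 7.45) and 12.6 CPM (11.5 to 13.7). Both knee libraries were above both hip libraries beyond counting error. The log2 ratio was -0.18 in the hip (-0.79 to 0.41) and 0.75 in the knee (0.52 to 0.99), so Sox5 was not called in either joint. After trend removal the hip value was -1.07 (-1.68 to -0.48) and was called. Sox5 and Sox9 thus had opposite directions in the knee, the former higher and the latter lower, beyond counting error under all 10 settings computed.

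**Figure D1:**
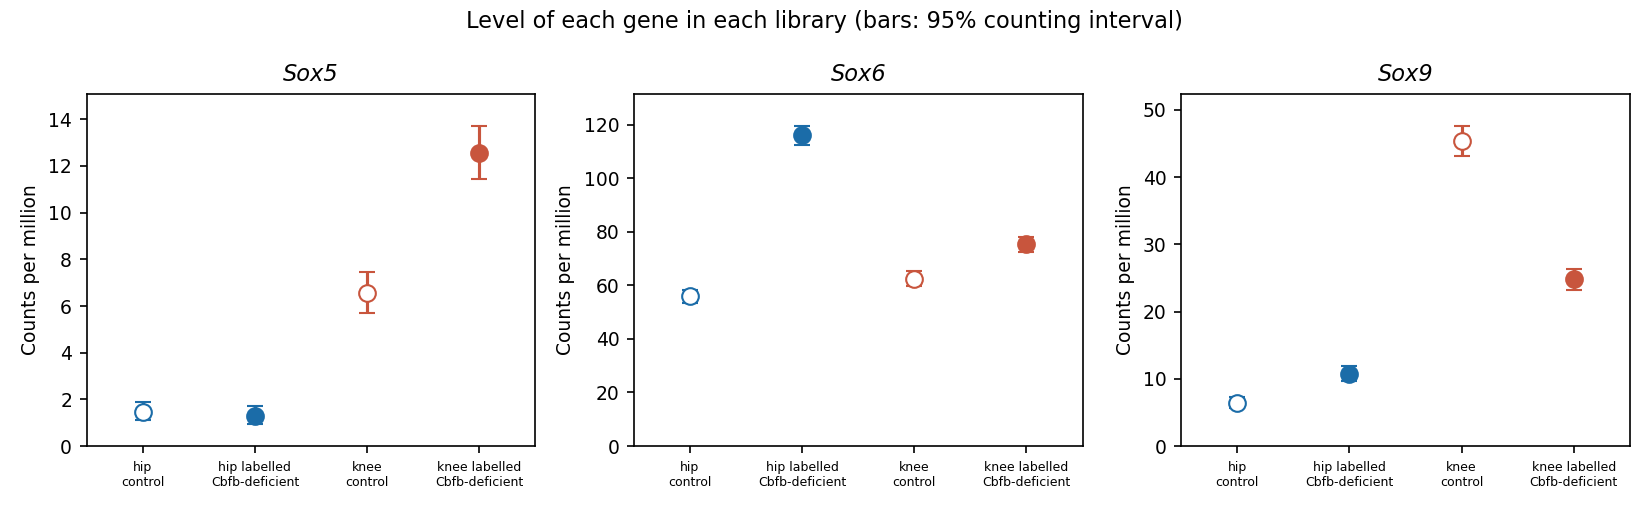
Level of Sox5, Sox6 and Sox9 in CPM (y axis, from 0) in each of the 4 libraries (x axis), open points for controls and filled points for libraries labelled Cbfb-deficient, with exact Poisson 95% intervals. Sox9 is at 45.4 CPM in the knee control and 24.8 CPM in its partner, while Sox5 goes from 6.54 to 12.6 CPM between the same libraries and Sox6 is highest in the hip library labelled Cbfb-deficient at 116 CPM.

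Levels were compared between the members only per kilobase of transcript (canonical GENCODE transcripts of 8006 bases for Sox5, 8554 for Sox6 and 4176 for Sox9). In the hip control Sox6 stood at 6.53 CPM per kb, Sox9 at 1.55 and Sox5 at 0.182, and in its partner at 13.6, 2.58 and 0.159. The order Sox6, Sox9, Sox5 held in both hip libraries. In the knee control Sox9 led at 10.9 CPM per kb, before Sox6 at 7.30 and Sox5 at 0.817. In the knee library labelled Cbfb-deficient Sox6 led at 8.81, before Sox9 at 5.93 and Sox5 at 1.57. The ratio of Sox6 to Sox9 per kb was, control first, 4.21 and 5.27 (hip) and 0.673 and 1.49 (knee), and that of Sox9 to Sox5 was 8.52 and 16.2 (hip) and 13.3 and 3.78 (knee). The members thus stood in different proportions in the libraries. Among genes measured in the knee, the level of Sox9 per kb lay at percentile 76.5 in the control and 61.9 in the library labelled Cbfb-deficient, whereas Sox6 lay at 69.6 and 70.0.

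Transcript length moved with the ratios, and the transcripts of the trio lie in the upper part of the length range. Among the 979 genes of the hip bin that holds Sox6 (transcripts of at least 8201 bases), the median log2 ratio was 0.76, and 61.3% of these genes were below Sox6. The bin of Sox5 had a median of 0.53 with 24.8% of genes below Sox5, and that of Sox9, with shorter transcripts, had 0.10 with 73.1% below. Sox6 was thus close to other genes of its length, and Sox5 low among them. With the median over bins of length and GC content subtracted, the hip ratio of Sox6 was 0.21 (0.14 to 0.29), no longer called, that of Sox5 was -1.07 (-1.68 to -0.48), then called, and that of Sox9 was 0.68 (0.45 to 0.92). In the knee the bins were flatter, with medians of 0.23 for Sox5 and Sox6 and 0.14 for Sox9, and 3.27% of genes in the bin of Sox9 were below it. The knee ratios without the trend were 0.52 for Sox5, -0.13 for Sox6 and -1.23 for Sox9. The source of this trend was not tested.

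**Figure D2:**
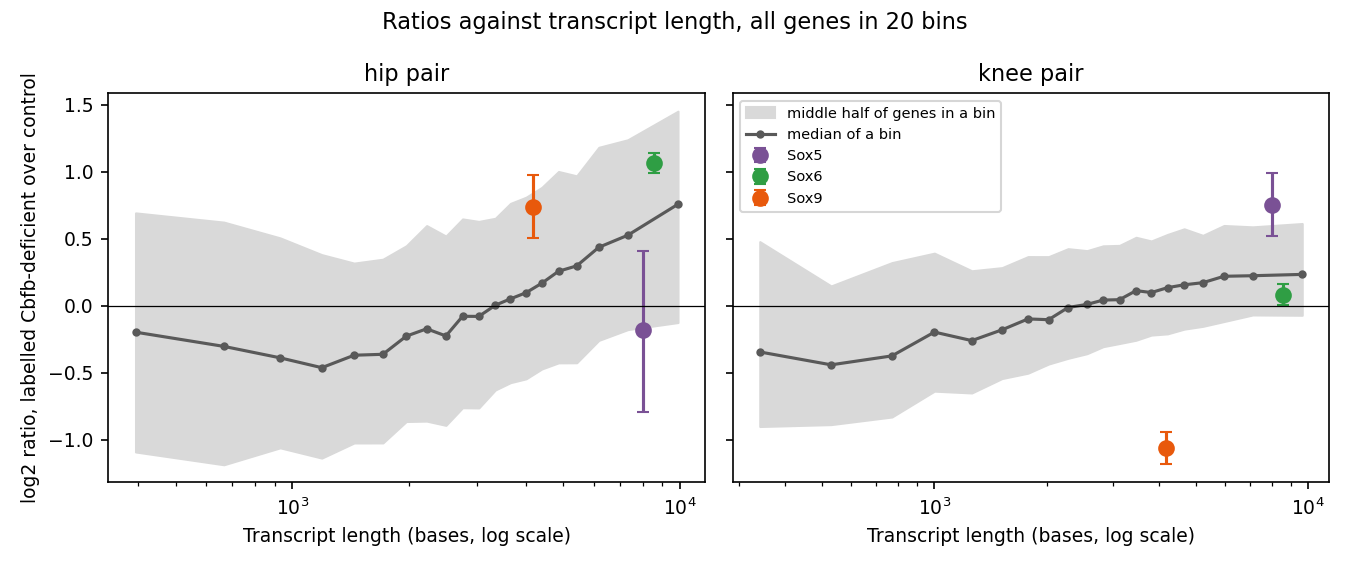
log2 ratio of the library labelled Cbfb-deficient over its control (y axis) against transcript length in bases (x axis, log scale) for the hip pair (left) and the knee pair (right); the line joins medians of 20 length bins, the grey band is the interquartile range of genes, and the coloured points are Sox5, Sox6 and Sox9 with 95% counting intervals. In the hip Sox6 (1.06) lies near the band's middle for its length (0.76) and Sox9 (0.74) in its upper part, and in the knee Sox9 (-1.06) lies below the band.

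Reads shared with overlapping genes could touch a member, since the counting is not stated to use strand. In GENCODE, 11 genes overlap Sox5, of which 7 are in the count tables, each under 10 counts in every library. Of 5 that overlap Sox6, 3 were counted. The protein-coding gene 1110004F10Rik shares 229 bases with Sox6 on the opposite strand, and its counts, control first, were 1504 and 1559 (hip) and 2499 and 2869 (knee), of the same order as those of Sox6. Sox6os, also on the opposite strand, had 130 and 60 (hip) and 57 and 71 (knee), with a hip log2 ratio of -0.95, opposite in sign to that of Sox6 but within counting error after trend removal (-0.20). BC006965, on the opposite strand over the whole of Sox9, had 8 and 15 (hip) and 6 and 13 (knee). Their part in the values of the members was not tested.

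The 19 genes of the Sox list, the trio included, did not share 1 direction. In the hip 14 were measured (at least 10 counts over the pair), of which 4 were higher and 7 lower beyond counting error, at backgrounds of 36.3% higher and 34.9% lower. Called were 1 higher (Sox6) and 5 lower, at 19.6% and 16.9% of all genes. In the knee 12 were measured, 6 higher and 5 lower, at 31.6% and 30.0%, and 1 was called higher (Sox10) and 2 lower (Sox9 and Sox11), at 8.96% and 6.92% of all genes. The list's median log2 ratio was -0.72 in the hip (-0.02 over all genes measured), -1.16 without the filter on low counts and -0.37 when each library had to reach 10 counts, and -0.005 in the knee (0.01 over all genes). Sox1, Sox3, Sox14, Sox15 and Sox21 stayed under the filter in both joints, and Sox2 and Sox30 passed it in the hip alone.

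Sox13, the other SOXD gene, had 671 and 497 counts (hip) and 236 and 523 counts (knee), control first here and in what follows. Its knee log2 ratio of 0.80 was close to that of Sox5 (0.75), and its hip ratio of -0.27 became 0.17, within counting error, after trend removal. Of genes measured in both joints, 10.6% were lower in the hip and higher in the knee. Among the SOXE genes, Sox8, which can act in place of SOX9 in some tissues, was lower in both joints, from 120 to 28 counts in the hip and from 97 to 71 in the knee, with log2 ratios of -1.92 and -0.79, a pattern of 13.4% of genes. Sox10, the SOXE gene of Schwann cells, was lower in the hip (145 and 56 counts, log2 ratio -1.20, and -0.66 after trend removal) and higher in the knee (22 and 63 counts, 1.15). The 9 Schwann cell markers beside it were lower in the hip for 7 and higher for 1, and in the knee higher for 7 and lower for 2, at the backgrounds given for the Sox list. Their summed share was 0.0173% and 0.0111% (hip) and 0.0217% and 0.0249% (knee), with none at 0, and their part in the Sox10 values was not tested. Each SOXE gene thus had its own pattern over the joints, and Sox9 alone of the SOXE genes was higher in the hip.

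The SOXC genes Sox4 and Sox11, known from progenitor cells, were lower in both joints. Sox4 had 577 and 162 counts (hip) and 1825 and 1188 counts (knee), with log2 ratios of -1.67 and -0.96, and Sox11 had ratios of -2.37 and -1.36. Sox12, the other SOXC gene, went with Sox9 in sign, at 0.50 in the hip (0.24, within counting error, under upper quartile scaling) and -0.65 in the knee. The vessel SOXF genes differed among themselves. Sox17 was higher in both joints (0.58 and 0.73), like 17.4% of genes, Sox7 was -0.31 in the hip, within counting error without the filter on low counts (-0.28) or after trend removal (-0.27), and higher in the knee (0.98), and Sox18 was lower in the hip (-1.19, and -0.47 after trend removal) with a knee ratio of -0.09 within counting error (-0.17 and beyond it under upper quartile scaling). The 6 endothelial markers had shares of 0.0260% and 0.0233% (hip) and 0.0210% and 0.0300% (knee), and their part in the SOXF values was not tested.

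**Figure D3:**
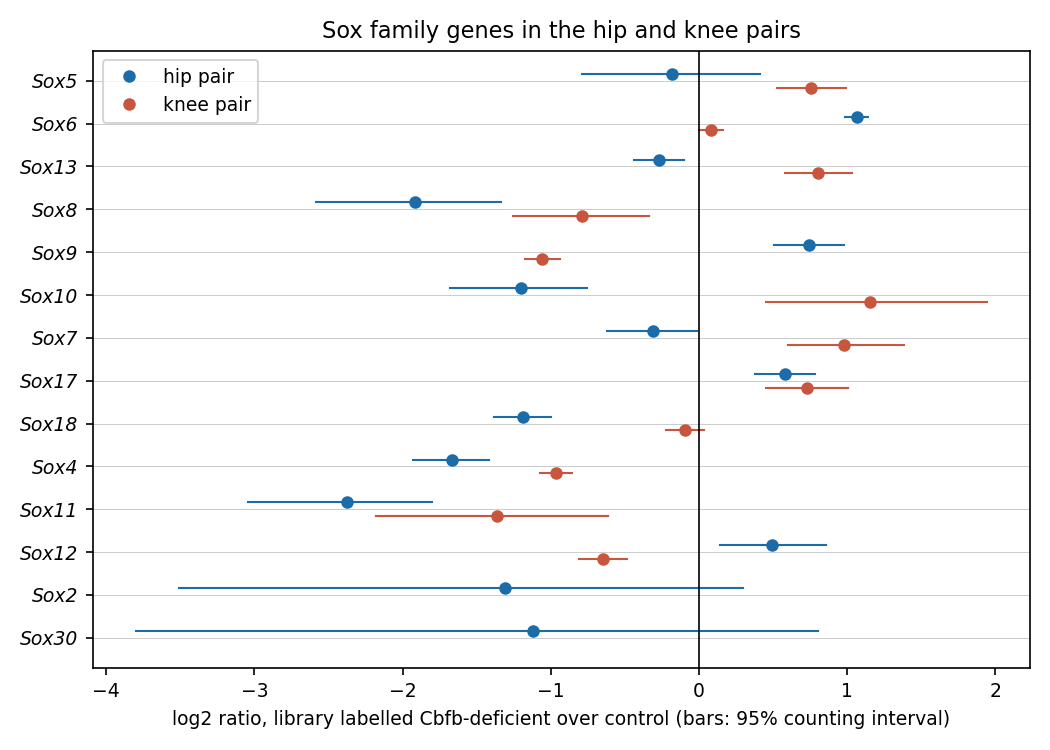
log2 ratio of the library labelled Cbfb-deficient over its control (x axis) for each measured Sox gene (y axis), hip pair in blue and knee pair in red, with 95% counting intervals. Sox9 is at 0.74 in the hip and -1.06 in the knee, Sox6 at 1.06 and 0.08, and Sox4, Sox8 and Sox11 are below 0 in both joints.

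The cartilage genes known to be bound and activated by SOX9, with SOX5 and SOX6, were mostly lower in the knee, as Sox9 was. Of 22 such genes, 19 were lower and 3 higher beyond counting error, at a background of 30.0% lower (16 were lower with library size scaling, and 0 were higher after trend removal). Called lower were 15, at a background of 6.92%, and 13 by library size or after trend removal. The median log2 ratio was -1.52, against 0.01 over all genes. Col2a1, the main cartilage collagen, had 87367 and 33204 counts (log2 ratio -1.74), and the type IX collagen genes had ratios of -4.04 (Col9a1), -3.12 (Col9a2) and -2.77 (Col9a3). Matn3, which encodes the matrix adaptor matrilin 3, had 3384 and 78 counts and the lowest ratio of the list, -5.77. These differences were larger than that of Sox9, whose ratio was -1.06. Acan, the gene of the proteoglycan aggrecan, had 858 and 1387 counts and a ratio of 0.35, which was 0.03 and within counting error after trend removal. Comp, an abundant matrix glycoprotein gene, stayed close to its control (22150 and 29134 counts, 0.05), within counting error under upper quartile scaling (-0.02) and after trend removal (0.01).

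Per kilobase, Col2a1 stood at 45.0 times Sox9 in the knee control and at 28.1 times in the library labelled Cbfb-deficient. Acan stood at 0.303 and 0.802 times Sox9 in these libraries. The 7 chondrocyte markers all belong to the target list, so they are no separate evidence, with 5 of them lower, and their share went from 0.396% to 0.191%. Superficial zone markers were higher for 5 of 5, at 31.6% of all genes, with Prg4, the lubricin gene, at 10157 and 36604 counts, and their share went from 0.0471% to 0.141%. Osteoblast and osteocyte markers took 1.20% and 0.705% of these libraries, erythroid markers 10.0% and 4.97%, and skeletal muscle markers 1.30% and 2.74%. Osteoclast markers went from 0.343% to 0.191%, adipocyte markers from 0.0684% to 0.124% and genes of the mitochondrial genome from 1.80% to 5.04%. The make-up of the knee libraries thus moved together with Sox9, and its part in the Sox9 and target values was not tested.

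In the hip the targets stood at low counts, and more of them were lower than higher, although Sox9 was higher. Of the 22 genes 19 were measured, leaving out Matn1, Mia and Epyc, with 11 lower and 5 higher beyond counting error, at backgrounds of 34.9% and 36.3%. Called were 6 lower and 2 higher, at 16.9% and 19.6% of all genes. The median log2 ratio was -0.46, and -0.29 after trend removal, with 9 genes lower and 5 higher. Under upper quartile scaling the median was -0.72, with 8 called lower and 2 higher. Col2a1 had 354 and 228 counts (-0.47, within counting error at -0.17 without the trend), and Acan 443 and 288 (-0.46). Comp, at 4715 and 1286 counts, had a ratio of -1.71 (-1.06 after trend removal). Higher, with Sox9, were Col9a3 (22 and 59 counts, 1.57), Col27a1 (142 and 323 counts, 1.35), Papss2, a sulfate-activating enzyme gene (209 and 321 counts, 0.78, and 0.47 after trend removal), and Fgfr3, a growth plate receptor gene (236 and 398 counts, 0.92). Hapln1, the link protein gene, was also higher at 0.99, but was -0.29 and within counting error after trend removal. Col9a2 moved the other way, from 0.36 within counting error to 0.89 beyond it after trend removal. Col2a1 stood at 1.14 and 0.491 times Sox9 per kb in the hip libraries, far from the ratio in the knee. The hip chondrocyte markers were lower for 6 of 7 genes and the tendon list for 4 of 5, at the same background of 34.9%. Between the hip libraries, control first, osteoblast and osteocyte markers stood at 0.0916% and 0.0218%, erythroid markers at 0.590% and 0.223%, and adipocyte markers at 0.0392% and 0.126%. The make-up of the hip libraries thus differed as well, and its part in the hip values of the trio and the targets was not tested.

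**Figure D4:**
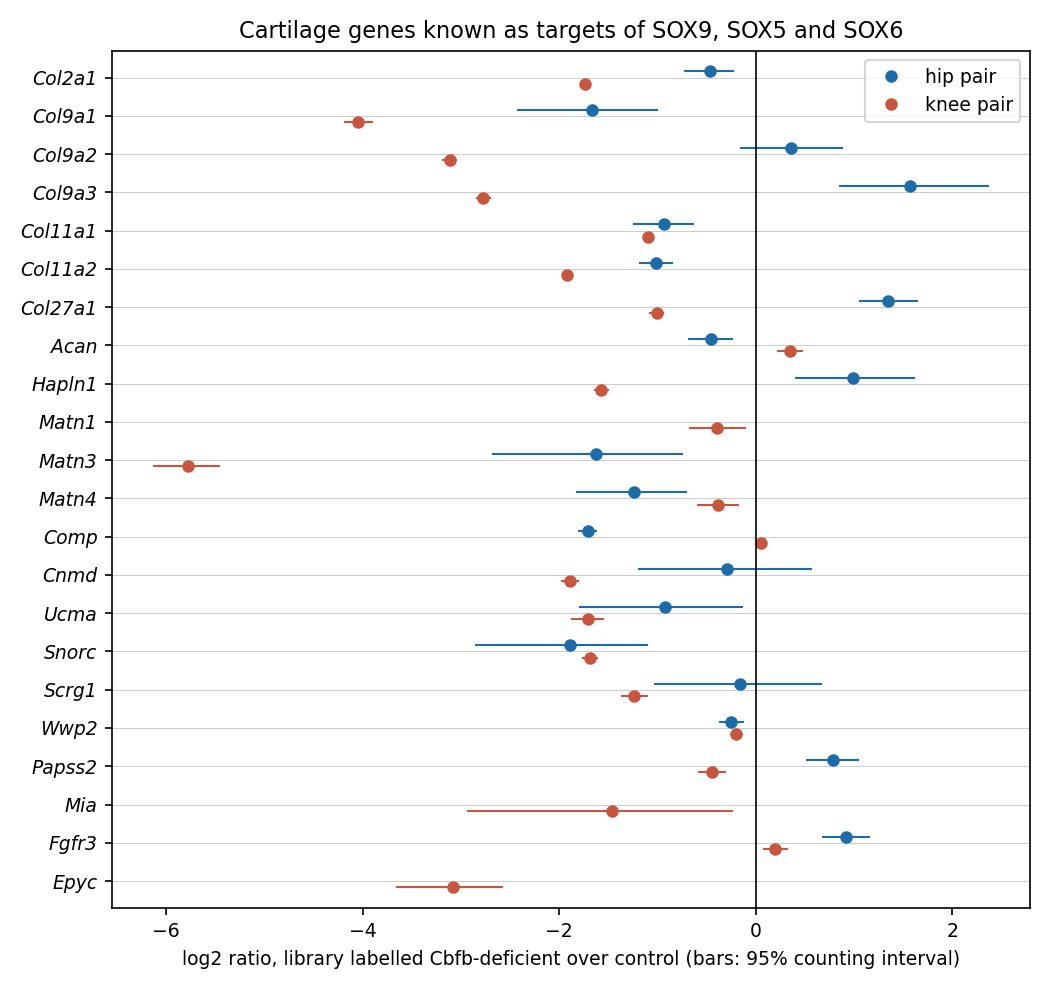
log2 ratio of the library labelled Cbfb-deficient over its control (x axis) for cartilage genes known as SOX9, SOX5 and SOX6 targets (y axis), hip pair in blue and knee pair in red, with 95% counting intervals. In the knee 19 of 22 are below 0 beyond counting error (16 under library size scaling), from -0.20 for Wwp2 to -5.77 for Matn3, and in the hip 11 of the 19 measured are below 0 and 5 above.

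Genes whose proteins work with SOX9 or modify it were more often higher than lower in both joints. Of 18 genes, the hip pair had 10 higher and 5 lower (7 and 6 under upper quartile scaling) and the knee pair 12 and 3 (9 and 5 after trend removal). The 18 take in Cbfb, the targeted gene and a partner of RUNX, which counted as higher in the hip and lower in the knee. The background of higher and lower genes was 36.3% and 34.9% for the hip pair and 31.6% and 30.0% for the knee pair. The median log2 ratio was 0.18 in the hip, turning to -0.08 under upper quartile scaling, and 0.44 in the knee. In the hip 5 were called higher and 3 lower, at 19.6% and 16.9% of all genes (2 and 3 under upper quartile scaling, 1 and 2 after trend removal). The genes called lower were Runx3, Barx2 (2065 and 649 counts, -1.51, and -0.99 after trend removal) and Nkx3-2 (-2.20). The coactivator genes Crebbp and Ep300 were called higher in the hip, at 1.10 and 1.13, but not after trend removal (0.80 and 0.70). In the knee Crebbp was lower (-0.54), as Sox9 was, and Ep300 stood at 0.09, which became -0.22 after trend removal. Med12, a Mediator subunit gene, was called higher in both joints, with 494 and 1795 hip counts (2.02) and 162 and 840 knee counts (2.03). Ppargc1a, a SOX9 coactivator gene that muscle also expresses strongly, was called higher in both (1.70 and 1.27), though in the hip it stood at 0.50 and was not called after trend removal. Arid5b, which assists SOX9 on chondrocyte genes, had 1.19 in the hip (0.42 and not called after trend removal) and 0.17 in the knee, the latter within counting error under upper quartile scaling (0.10) and after trend removal (-0.06). Of the RUNX genes, which encode the partners of Cbfβ, Runx2 was lower in the hip (-0.39, and -0.61 after trend removal) and higher in the knee (0.50, and 0.22 after it), Runx3 was lower in the hip (-1.72) and in the knee (-0.24, within counting error at -0.05 by library size), and Runx1 stood at 0.35 and 0.07, the former within counting error under upper quartile scaling (0.09) and -0.30 after trend removal, the latter 0.25 by library size and -0.13 after trend removal, both beyond counting error.

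SOX9, SOX5 and SOX6 hold chondrocytes before hypertrophy, the stage of the growth plate that ends in bone, and 6 genes of that stage were set beside them. In the knee 5 of the 6 were called lower, at 6.92% of all genes (4 of 6 by library size), with Col10a1, the hypertrophic collagen gene, at 12199 and 5770 counts (-1.42), Ihh at -1.59, Panx3 at -2.02 and Mmp13 at -1.72. The median log2 ratio of the 6 genes was -1.51 in the knee and -0.43 in the hip. The hip median was 0.08 when each library had to reach 10 counts, -0.69 under upper quartile scaling and -0.83 after trend removal. In the knee Mef2c was the exception, higher at 0.60 (4103 and 7911 counts), and the other 5 were lower, as Sox9 was. In the hip Col10a1 (164 and 43 counts, -1.76) and Pth1r (-1.59) were called lower, and Mef2c was called higher (1.23), which was -0.05 without the trend. These 3 calls among 6 genes stand beside 36.5% of all hip genes called, 16.9% lower and 19.6% higher. Mef2c is also a muscle gene, and the part of the muscle RNA in its hip value was not tested. Mmp13 was at 0.29 in the hip, 0.03 under upper quartile scaling and -0.54 after trend removal.

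Genes of like profile were sought over the 4 libraries, among 9629 genes with at least 100 counts in each, by the Euclidean distance between log2 CPM values centred on their own mean. The points share the libraries and their depth, and the distance carries no test. Nearest to Sox9 were 2410006H16Rik (distance 0.146) and Sdc4, the gene of the cell surface proteoglycan syndecan 4 (0.147), followed by Cir1, Slc26a2 and Snhg6 (0.255 to 0.277). Slc26a2, the sulfate transporter gene that cartilage needs for proteoglycan sulfation, had log2 ratios of 0.50 in the hip and -0.85 in the knee. Nearest to Sox6 were Lgr4, Pcmtd2, Gzf1, Zcchc14 and Gnl3l (0.0501 to 0.120), with Lgr4, an R-spondin receptor gene, at 1.05 in the hip and 0.14 in the knee. Nearest to Sox5 were Prom1, Cap1, Ttyh3, Wipf1 and Slc11a1 (0.188 to 0.250), with Prom1 at -0.20 and 0.50. Sox5 itself, at 56 and 44 hip counts, was under the filter of 100. The counting interval of its hip ratio (-0.79 to 0.41) is wider than these distances, so the order of its neighbours is uncertain. The members had no near gene in common.

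**Figure D5:**
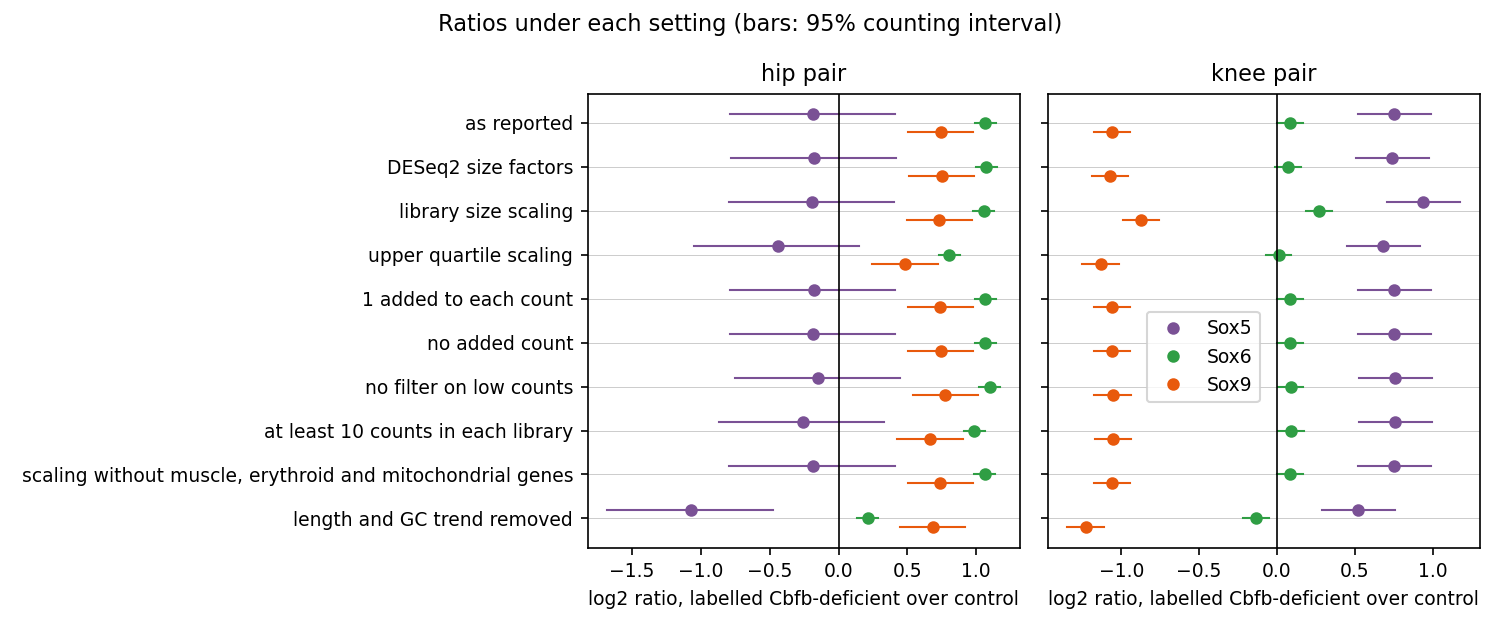
log2 ratio of Sox5, Sox6 and Sox9 (x axis) under each of 10 settings of scaling, added count, filter and trend removal (y axis), hip pair on the left and knee pair on the right, with 95% counting intervals. Sox9 stays above 0 in the hip (0.48 to 0.78) and below 0 in the knee (-1.23 to -0.87), whereas Sox6 in the knee lies on both sides of 0.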

How the data were processed

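Poly-A RNA libraries (NEBNext Ultra) of hip and knee were sequenced once per condition, 4 in all. The authors deposited read counts per Ensembl gene without normalization, as whole numbers. The hip counts carry the summary lines of HTSeq (25.8% and 24.6% of the reads listed, left out here), and the knee counts come from another program, apparently featureCounts, with another annotation. The paper names STAR on GRCm39, and the submitters' processing notes name mm10, FastQC 0.11.3 and STAR 2.0, and the extract protocol names osteoblasts. Counting settings and strand use are not given in the sources used here. Identifiers were matched to GENCODE vM39 on GRCm39 (91.8% of hip and 92.6% of knee identifiers), so positions are those of that annotation. Depth was 34264456 to 38473120 counts on genes per library.

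The study compared conditions with DESeq2 in pairs, but 1 library per condition leaves no spread to estimate, so neither DESeq2 nor edgeR was used as a test. Counts were scaled within each pair by TMM (edgeR 4.0.16, R 4.3.3) on genes that reached 10 counts in the pair together. For log2 ratios 0.5 was added to each count, with a 95% Clopper-Pearson interval. Alternatives were DESeq2 1.42.0 size factors, library size, upper quartile, other added counts and filters, scaling without muscle, erythroid and mitochondrial genes, and subtraction of median ratios over 20 bins of transcript length and of GC content in 2 rounds. Named genes were the members, 4 lists (Sox genes, SOX targets, SOX9 partners, hypertrophy), up to 3 genes of each muscle fibre and globin list, the 5 nearest profiles per member, genes overlapping a member, and Cbfb. Prg4 and the slow fibre genes Myl3, Myl2, Tnni1, Tnnc1, Tnnt1 and Myh7b were named after their values were seen. Members and lists were chosen with earlier results of these data known. Python 3.11.15, numpy 2.4.6, pandas 2.3.3, scipy 1.17.1 and matplotlib 3.10.9 were used. The ratio step was tested on simulated counts: all 200 genes changed by 2 on the log2 scale, above the 1 needed for a call, were called in the hip simulation (19266 genes) and all 200 in the knee simulation (20647 genes), along with 0.755% and 0.616% of unchanged genes. The simulated counts held counting error alone, with no differences between animals and no trend with length. All changed genes had expected control counts above 200, so their recovery was near certain beforehand. The simulation checks the arithmetic only, and its shares are not error rates for the real pairs. Scarce genes, such as Sox5 in the hip, were outside the changed set.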

Additional observations from a re-analysis of the deposited data

Results flagged for a closer look

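Sox9 was higher than its control in the hip and lower in the knee, each beyond counting error, and the knee log2 ratio minus the hip log2 ratio was -1.80. With 1 library per condition no difference between the joints was tested, for Sox9 or for any gene in this part. The shares of chondrocyte markers (0.0155% and 0.00592% of the hip libraries, 0.396% and 0.191% of the knee libraries) and the counting program differed between the joints as well, and their part in the difference was not tested.

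In all, 17 of the 55 listed genes measured in both joints had opposite directions of this kind, 9 higher in the hip and 8 higher in the knee. Over all 17594 genes measured in both joints, 9.98% and 10.6% had these directions. In the Sox family the same difference was 1.29 for Sox7, 2.35 for Sox10, -1.14 for Sox12 and 1.07 for Sox13. Among the target genes, Col9a3 (-4.34), Hapln1 (-2.57), Col27a1 (-2.36) and Papss2 (-1.23) had the directions of Sox9, with larger differences than Sox9 for all but Papss2. Comp (1.76) and Acan (0.81) had the opposite directions, lower in the hip and higher in the knee. The list of SOX9 partners takes in Cbfb, the targeted gene. In that list the difference was -1.65 for Crebbp, -0.45 for Cbfb, 0.80 for Prkaca, 2.30 for Barx2 and 0.88 for Runx2. Under at least 1 other setting Sox7, Sox12, Sox13, Hapln1, Acan, Comp, Prkaca and Mmp13 lost or turned 1 of their directions, and Cbfb lost or turned both. Mmp13, the collagenase gene of hypertrophic chondrocytes, had a difference of -2.003.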

How the results depend on the processing

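With 1 library per condition, leaving out a library was not possible, and differences between animals cannot be seen at this depth or any other. For the same reason there were no replicates to pair. Of 157 recomputed values, 130 stayed within a tolerance, which was the counting interval for a ratio, 1.5 times for a count, and for the median of a list the median half-width of its genes' counting intervals, so that lists of scarce genes had a wider one. Directions of Sox9 held in both joints under all 10 settings.

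Subtracting the trend over length and GC content moved Sox5 to -1.07 and Sox6 to 0.21 in the hip, and Sox5 to 0.52, Sox9 to -1.23 and Sox6 to -0.13, a reversal, in the knee. It moved the median of the hypertrophic genes in the hip to -0.83, and in the knee those of the targets to -1.35 and of the SOX9 partners to 0.26. Upper quartile scaling shifted the median of all hip genes by -0.26 and the share of calls that were higher from 53.7% to 39.7%, with Sox6 at 0.80 and Sox9 at 0.48, the hip median of SOX9 partners reversed at -0.077, and the knee median of hypertrophic genes at -1.58. Library size scaling shifted the median of all knee genes by 0.19 and that share from 56.4% to 71.3%, with Sox6 at 0.27, Sox9 at -0.87, targets at -1.33, partners at 0.62 and hypertrophic genes at -1.32. Without the filter on low counts the hip median of the Sox family was -1.16, from genes of few counts entering. With at least 10 counts in each library, Sox6 was 0.98 in the hip, the Sox family median -0.37, and the hypertrophic median reversed to 0.084 after Panx3 left the list. Called genes numbered 7253 in the hip and 3356 in the knee, and 4479 and 2013 under that filter, 14129 and 13024 by the counting interval alone, and 3097 and 1167 at a log2 ratio of at least 2.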

Other observations

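Genes that SOX6 is known to repress outside cartilage were read beside it. In the hip pair, where Sox6 was higher than in its control, 4 of 11 slow muscle fibre genes were higher and 7 were lower, with a median log2 ratio of -0.26 (-0.02 over all genes). Over all hip genes 36.3% were higher and 34.9% lower. Of the 11, 5 were called lower, at 16.9% of all genes, among them Myl3 (31399 and 3202 counts, -3.13), Tnni1 (-1.60) and Myl2 (-1.44), which are named here after their values were seen. After trend removal Myl3 was still called (-2.53), and Myl2 (-0.97), Tnni1 (-0.89), Tnnc1 (-0.79) and Tnnt1 (-0.38) were not. Myh7b was called higher (1.40). Atp2a2, the slow fibre calcium pump gene, had 24768 and 18518 counts (-0.26), Myh7, the slow myosin gene, 18021 and 21814 (0.44), and Tpm3 a ratio of -0.03 that was 0.19 after trend removal. The 10 fast fibre genes had a median of 0.31 there, with 5 higher and 4 lower (8 and 2 after trend removal, with a median of 0.49), led by Myh4 at 525762 and 1108488 counts (1.24). Among the fast fibre genes with the most counts, Atp2a1 had a ratio of 0.15 and Tnnt3 of -0.24, the latter 0.21 after trend removal. In the knee 10 of 10 fast fibre genes and 9 of 11 slow fibre genes were higher, at 31.6% of all genes, while the knee ratio of Sox6 was 0.08. Embryonic globin genes had at most 1 count in a hip library. In the knee control Hba-x had 23 counts and Hbb-y 12, with 2 each in the library labelled Cbfb-deficient, and 9 of the 11 erythroid markers measured were also lower there, at 30.0% of all genes.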
